A study of Mus musculus with 16 samples.

Results

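The genes described here encode 10 stretch-responsive proteins of the Z-disc and the costamere, the structures through which force passes between neighboring sarcomeres and from the sarcomere to the cell membrane. They were taken by name from the count table, with earlier results of these data known. They are the muscle ankyrin repeat genes Ankrd1, Ankrd2 and Ankrd23, the Xin actin-binding repeat genes Xirp1 and Xirp2, the LIM domain genes Csrp3, Fhl1, Fhl2 and Nrap, and the synaptopodin-like gene Synpo2l. All 10 were present among the 55573 genes of the table and all 10 passed the filter on low counts, which left 16857 genes to be tested. Ankrd2 passed that filter only through TAC hearts. RNA came from the heart apex of 16 male wild-type mice that had received AAV9 under the skin on postnatal day 1. The virus carried either GFP or the lncRNA Cardinal behind the cTNT promoter, which is active in cardiomyocytes, so other cells of the heart were not meant to express either. Later the mice underwent transverse aortic constriction (TAC), a band around the aorta that raises the pressure against which the left ventricle pumps, or a sham operation without the ligation. Hearts were collected 4 weeks later, with 4 mice for each pairing of virus and surgery.

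Z-disc and costamere proteins hold the ends of actin and titin filaments and report strain to the nucleus. Muscle ankyrin repeat proteins sit on a spring-like segment of titin and can also enter the nucleus, where they act with transcription factors. Xin repeat proteins bundle actin at the intercalated disc and the Z-disc, and LIM domain proteins dock on alpha-actinin, titin or the actin of new myofibrils. Ankrd1 is known as one of the earliest genes to rise in overloaded ventricle, and mutations in CSRP3 and FHL1 cause inherited cardiomyopathy.

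The libraries held between 16441997 and 21904589 counts. Gm12295, the mouse Cardinal gene, was at 3.42 to 7.24 CPM (counts scaled to the normalized library size) in AAV9-GFP hearts and at 18.3 to 93.9 CPM in AAV9-Cardinal hearts, with no overlap. The 10 ventricular cardiomyocyte markers together took 39670 to 52900 CPM, whereas all 8 markers of fast skeletal muscle and the atrial genes Sln, Myl7 and Bmp10 stayed under 1 CPM in every mouse. In this bulk tissue, fewer cells of a type and less RNA per cell cannot be told apart. Fibroblast markers (7 genes, collagens and Postn among them) summed to 900.3 to 1165 CPM in AAV9-GFP TAC hearts and to 503.0 to 584.5 CPM in the 8 sham hearts. Among AAV9-Cardinal TAC hearts the sum was 987.5 CPM in mouse 1 and 526.8 to 569.8 CPM in mice 4, 5 and 6, so mouse 1 stood apart. In AAV9-GFP hearts 6 of the 10 cardiomyocyte markers were lower after TAC and 2 were higher, with a median log2 fold change of -0.28. The part of these shifts in the values given below was not tested.

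Pressure overload raised most of these genes. In AAV9-GFP hearts 8 of the 10 passed the threshold (edgeR quasi-likelihood test, Benjamini-Hochberg adjusted p under 0.05) and all 8 were higher after TAC. Over all genes tested, 8.49% were called higher and 8.92% lower. The same 8 genes had every TAC mouse above every sham mouse, which held for 10.1% of all genes. Ankrd2 is among these 8. Because it passed the filter on low counts only through TAC hearts, its call and its separation are not separate support. The median log2 fold change of the 10 genes was 1.32, and 1.10 without Ankrd2, beside 0.00502 for all genes tested. Since the genes were chosen with earlier results known, these comparisons with all genes are a description and not independent support. The 2 genes not called were Xirp1, with a log2 fold change of 0.98 ± 0.34 (SE), and Fhl2, at -0.06 ± 0.10. In AAV9-Cardinal hearts 7 of the 10 were called higher after TAC and 0 lower (9 at an unadjusted p under 0.05, and 3.10% of all genes called higher and 3.38% lower). With the replicate number as a block 2 of the 7, Ankrd23 and Xirp2, passed (31 instead of 1092 over all genes). In that fit AAV9-Cardinal TAC mice 5 and 6, whose numbers no other group holds, add nothing to the comparison. Of the 10 genes, 9 had no overlap between TAC and sham mice, against 6.51% of all genes. The median log2 fold change was 1.13, also with Ankrd2 measured against 3 counts per library, beside -0.000469 for all genes tested.

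**Figure D1:**
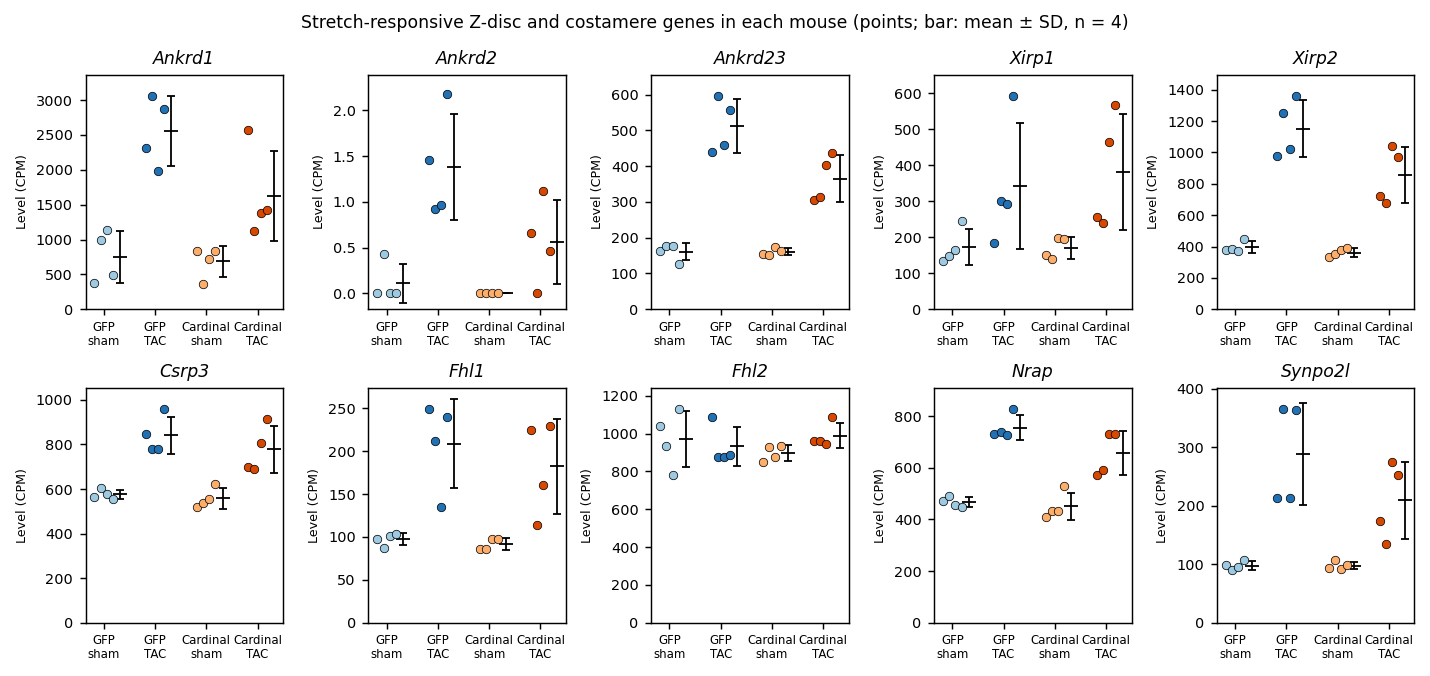
Level of each of the 10 genes in every mouse, in CPM on a linear axis, by group; points are mice and the bar beside them is the mean ± SD of 4 mice. TAC points lie above sham points for most genes, Fhl2 stays within 782.9 to 1130 CPM in all groups, and Ankrd2 stays below 3 CPM.

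Ankrd1 showed the largest rise in CPM. The gene (chr19:36111961-36120099 on GRCm38, minus strand) encodes the cardiac ankyrin repeat protein, which binds titin and acts as a cofactor of transcription. In AAV9-GFP sham hearts its level was 379.1, 997.7, 1132 and 497.8 CPM in mice 1, 2, 3 and 4, and in AAV9-GFP TAC hearts it was 2315, 3061, 1985 and 2875 CPM in mice 1, 3, 4 and 7. The lowest TAC heart exceeded the highest sham heart, although the sham hearts themselves ranged 2.99-fold. The log2 fold change was 1.77 ± 0.36 (3.40-fold, adjusted p = 0.0032, edgeR, n = 4 per group). In AAV9-Cardinal hearts the sham mice 1 to 4 had 836.3, 365.6, 718.9 and 831.3 CPM and the TAC mice 1, 4, 5 and 6 had 2574, 1124, 1379 and 1424 CPM. Mouse 1 alone reached the range of the AAV9-GFP TAC group, and it was also the mouse with the high fibroblast marker sum. The log2 fold change was 1.24 ± 0.35 (edgeR adjusted p = 0.049), which was 0.93 (adjusted p = 0.11) without that mouse and lost the call when any of 12 of the 16 mice was left out.

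Ankrd23 was also higher after TAC, with less scatter between mice. It encodes the diabetes-related ankyrin repeat protein, another titin-binding member of the family, at chr1:36530188-36536883 (minus strand). AAV9-GFP sham mice had 163.5, 176.8, 176.2 and 126.3 CPM and AAV9-GFP TAC mice 439.5, 596.6, 458.0 and 556.6 CPM. The lowest TAC heart was far above the highest sham heart. The log2 fold change was 1.67 ± 0.14 (3.19-fold, edgeR adjusted p = 4.9e-06). AAV9-Cardinal sham mice had 154.5, 152.6, 174.7 and 163.0 CPM and AAV9-Cardinal TAC mice 304.2, 313.0, 403.6 and 436.8 CPM (log2 fold change 1.18 ± 0.14, adjusted p = 0.00052). Of the 50-base stretches of Ankrd23 exons, 75.0% also occur in other annotated genes, mainly in Gm42417, which overlaps it on the same strand. Gm42417 was at 0.70 to 16.4 CPM in 14 mice and at 89.9 and 80.1 CPM in AAV9-GFP sham mouse 4 and AAV9-GFP TAC mouse 1. When the counts of both genes were added, Ankrd23 kept its calls for TAC, with log2 fold changes of 1.49 and 1.17 under AAV9-GFP and AAV9-Cardinal.

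Ankrd2, which marks slow skeletal fibers and is strongly stretch-responsive there, was barely detected. It was counted in 1 AAV9-GFP sham heart (mouse 2, 0.43 CPM) and in no AAV9-Cardinal sham heart. AAV9-GFP TAC mice had 1.46, 0.92, 0.96 and 2.17 CPM, all above the highest sham heart, for 128 counts against 9. The sham mean lay under the level of 3 counts per library, and the TAC mean was 9.52-fold that level. That ratio leaves out the spread between mice. The fitted log2 fold change had a 95% interval of 1.75 to 5.45, which is only rough with a single sham heart above 0. The AAV9-GFP call (edgeR adjusted p = 0.021) was lost without AAV9-GFP TAC mouse 7 (adjusted p = 0.058) and without AAV9-GFP sham mouse 1 (0.058), 3 (0.061) or 4 (0.053). It was also lost with DESeq2 (adjusted p = 0.11) and with the replicate block (0.051), which takes AAV9-GFP TAC mouse 7 out of the comparison. AAV9-Cardinal TAC mice had 0.66, 0, 1.12 and 0.46 CPM, for 49 counts against 0. Their mean was 3.65-fold the level of 3 counts per library, again without the spread between mice. That difference did not pass the threshold (adjusted p = 0.062), and it did when AAV9-Cardinal TAC mouse 4 was left out (adjusted p = 0.028). The 8 skeletal muscle markers, all of fast fibers, were about as low, with sums of 0.343 to 1.06 CPM in AAV9-GFP sham mice and 1.09 to 1.59 CPM in AAV9-GFP TAC mice. With Cardinal the sums were 0.949 to 1.67 and 0.398 to 0.987 CPM. Their part in the Ankrd2 values was not tested.

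The RefSeq promoter windows of Ankrd1 and Ankrd23 (250 bases before to 50 after an annotated start, GRCm38.p6) hold the 6-letter core of the MCAT element, CATTCC on either strand, the site known to bind TEAD factors. It is common: 14.66% of 32851 windows hold it. The stretches are shown because Ankrd1 and Ankrd23 had the largest fold changes after TAC among the genes above 3 CPM in AAV9-GFP hearts. Capitals mark the core, and the Ankrd1 window holds it on the opposite strand at positions -210 to -205 and -123 to -118 from the start. Both Ankrd1 stretches lie in an exon of the longer GENCODE gene model (chr19:36120039-36120064 and chr19:36119952-36119977, minus strand), and the Ankrd23 stretch (chr1:36535834-36535879, minus strand) is intronic and overlaps Gm42417.
Ankrd1, distal: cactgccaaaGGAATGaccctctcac
Ankrd1, proximal: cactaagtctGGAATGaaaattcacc
Ankrd23: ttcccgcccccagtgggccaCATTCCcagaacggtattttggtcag

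The Xin repeat genes differed in how evenly they moved. Xirp2 (myomaxin, chr2:67446002-67526614, plus strand), which binds actin and alpha-actinin at the Z-disc, was at 375.1, 384.4, 373.9 and 450.6 CPM in AAV9-GFP sham mice and at 978.4, 1249, 1021 and 1361 CPM in AAV9-GFP TAC mice. No TAC heart came near the sham range, and the log2 fold change was 1.54 ± 0.14 (2.91-fold, edgeR adjusted p = 8.0e-06). In AAV9-Cardinal hearts it went from 330.7, 349.8, 375.2 and 391.8 CPM to 724.6, 678.5, 1040 and 970.7 CPM (log2 fold change 1.24 ± 0.14, adjusted p = 0.00052). Mice 5 and 6 were again higher than mice 1 and 4.

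Xirp1 (Xin, chr9:120013755-120023598, minus strand), an intercalated disc protein, was at 135.4, 148.3, 164.2 and 245.6 CPM in AAV9-GFP sham mice and at 183.9, 302.0, 292.8 and 592.9 CPM in AAV9-GFP TAC mice. TAC mouse 1 lay inside the sham range and TAC mouse 7 far above the other hearts with this virus. The log2 fold change of 0.98 ± 0.34 missed the threshold (edgeR adjusted p = 0.056), and it rested on single mice. Without TAC mouse 7 it was 0.59 (adjusted p = 0.23). With the replicate number as a block, which also takes TAC mouse 7 out of the comparison, it was 0.50 (0.075). It passed without TAC mouse 1 (0.019), sham mouse 4 (0.037) or AAV9-Cardinal TAC mouse 6 (0.047), or with a filter of at least 1 CPM in 4 mice (0.049). In AAV9-Cardinal hearts Xirp1 was at 149.8, 140.4, 199.2 and 195.6 CPM in sham mice and at 256.3, 238.6, 465.8 and 568.5 CPM in TAC mice. The groups did not overlap, yet the log2 fold change of 1.16 ± 0.34 also missed the threshold (edgeR adjusted p = 0.052). It passed with DESeq2 (adjusted p = 0.030), with the stricter filter (0.046) and with only the mice compared (0.042). With the block, which takes out AAV9-Cardinal TAC mice 5 and 6, it was 0.55 (edgeR adjusted p = 0.23). It also passed in 5 of the 16 fits with a mouse left out, those without AAV9-Cardinal TAC mouse 1 (0.033) or 4 (0.042), AAV9-GFP TAC mouse 1 (0.033) or 7 (0.028), or AAV9-GFP sham mouse 4 (0.050 after rounding).

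Xirp2 and Synpo2l were the genes with a MEF2 site in their RefSeq windows, a match found in 0.56% of all windows. The Xirp2 window also holds an AP-1 site, TGANTCA, found in 7.81% of windows. Both stretches lie just upstream of the annotated gene (Xirp2 at chr2:67445875-67445957, plus strand, and Synpo2l at chr14:20668434-20668483, minus strand). They are shown because these genes varied together from mouse to mouse. Capitals mark the AP-1 site and then the MEF2 site in Xirp2, at positions -107 to -101 and -74 to -65, and the MEF2 site in Synpo2l, at positions -109 to -100.
Xirp2: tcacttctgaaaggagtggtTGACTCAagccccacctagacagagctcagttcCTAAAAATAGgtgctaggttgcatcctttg
Synpo2l: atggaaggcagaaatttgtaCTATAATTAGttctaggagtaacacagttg

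Synpo2l (CHAP, chr14:20658946-20668354, minus strand), an alpha-actinin partner at the Z-disc, was at 97.7, 89.8, 95.1 and 107.0 CPM in AAV9-GFP sham mice. In AAV9-GFP TAC mice 1, 3, 4 and 7 it was at 213.0, 364.8, 213.5 and 362.7 CPM, so that mice 3 and 7 formed a higher pair and mice 1 and 4 a lower pair. The log2 fold change was 1.57 ± 0.22 (2.96-fold, edgeR adjusted p = 0.00020). AAV9-Cardinal sham mice had 92.5, 106.1, 91.9 and 99.2 CPM and AAV9-Cardinal TAC mice 174.2, 134.9, 273.8 and 253.1 CPM (log2 fold change 1.10 ± 0.21, adjusted p = 0.0090). Sham hearts of both viruses were close together, with SDs of 7.17 and 6.70 CPM, and TAC hearts were spread widely, with SDs of 86.9 and 65.5 CPM.

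The LIM domain genes followed. Csrp3 (muscle LIM protein, chr7:48830398-48848033, minus strand), a Z-disc adaptor, was at 563.8, 605.2, 577.7 and 556.1 CPM in AAV9-GFP sham mice and at 846.3, 780.2, 778.1 and 958.7 CPM in AAV9-GFP TAC mice. The rise was 1.46-fold (log2 fold change 0.55 ± 0.09, edgeR adjusted p = 0.00080) with no overlap. AAV9-Cardinal sham mice had 517.4, 536.6, 554.7 and 622.7 CPM and AAV9-Cardinal TAC mice 697.3, 691.9, 805.6 and 915.3 CPM (log2 fold change 0.48 ± 0.09, adjusted p = 0.0073).

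Nrap (chr19:56320035-56390037, minus strand), which anchors actin at sites of myofibril assembly and at the intercalated disc, followed Csrp3. Its level was 473.4, 490.5, 456.4 and 448.9 CPM in AAV9-GFP sham mice and 730.5, 739.8, 728.8 and 828.0 CPM in AAV9-GFP TAC mice. The TAC hearts other than mouse 7 were almost level, and the log2 fold change was 0.70 ± 0.09 (1.62-fold, edgeR adjusted p = 0.00013). In AAV9-Cardinal hearts Nrap went from 410.2, 432.3, 431.7 and 528.5 CPM to 574.3, 592.8, 731.7 and 730.1 CPM (log2 fold change 0.54 ± 0.09, adjusted p = 0.0042). Habp2, which overlaps Nrap on the opposite strand and whose reads cannot be told apart there without strand, was at 1.67 to 7.22 CPM.

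Fhl1 and Fhl2, relatives made of LIM domains that bind the same elastic region of cardiac titin, are given side by side. Fhl1 (chrX:56731787-56793346, plus strand) was at 98.1, 87.3, 101.4 and 102.9 CPM in AAV9-GFP sham mice and at 249.2, 212.5, 134.6 and 239.6 CPM in AAV9-GFP TAC mice, with mouse 4 well below the others. The log2 fold change was 1.10 ± 0.20 (2.15-fold, edgeR adjusted p = 0.0017). AAV9-Cardinal sham mice had 85.3, 85.6, 97.4 and 97.1 CPM and AAV9-Cardinal TAC mice 225.1, 113.4, 161.2 and 229.9 CPM (log2 fold change 1.00 ± 0.20, adjusted p = 0.011). Mouse 4 was again the lowest of its group.

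Fhl2 (chr1:43123074-43196984, minus strand), also a cofactor of SRF, was at 1041, 936.4, 782.9 and 1130 CPM in AAV9-GFP sham mice and at 1088, 879.0, 879.1 and 886.9 CPM in AAV9-GFP TAC mice. The groups overlapped, and the log2 fold change of -0.06 ± 0.10 (95% interval -0.25 to 0.13) had an edgeR adjusted p of 0.75. AAV9-Cardinal sham mice had 852.7, 928.7, 875.4 and 934.7 CPM and AAV9-Cardinal TAC mice 960.3, 962.6, 947.0 and 1088 CPM. These groups did not overlap, but the log2 fold change was small, 0.14 ± 0.10 (95% interval -0.05 to 0.33, adjusted p = 0.44).

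The log2 ratio of Fhl1 to Fhl2 counts within a mouse does not depend on library size. It was -3.31 ± 0.24 (SD) in AAV9-GFP sham hearts and -2.19 ± 0.36 in AAV9-GFP TAC hearts, a difference of 1.12. In AAV9-Cardinal hearts it was -3.30 ± 0.11 and -2.49 ± 0.44, a difference of 0.81. Both differences had every TAC mouse above every sham mouse, and each gave p = 0.029 in an exact two-sided permutation test (70 labelings of 4 against 4 mice), the smallest value this design allows. Adjusted over the 4 comparisons they were 0.057 (exact permutation) and so did not pass 0.05. They could have passed only if a comparison between viruses had also reached the smallest value. Between viruses the ratio differed by -0.30 in TAC hearts (exact p = 0.31, adjusted 0.42) and by 0.01 in sham hearts (exact p = 0.97, adjusted 0.97).

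The RefSeq windows of both genes hold a CArG box, the site known to bind SRF, which 1.63% of windows hold. It lies in 1 window of Fhl1 at positions -102 to -93 and in separate windows of Fhl2 at positions -31 to -22 and -96 to -87. The stretches are shown because the box occurs in both relatives. The Fhl1 stretch (chrX:56779561-56779610, plus strand) and the first Fhl2 stretch (chr1:43163963-43164012, minus strand) are intronic in the longest gene model, and the second Fhl2 stretch (chr1:43196838-43196867, minus strand) lies in an exon. Capitals mark the box.
Fhl1: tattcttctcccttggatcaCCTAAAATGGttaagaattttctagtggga
Fhl2, internal start: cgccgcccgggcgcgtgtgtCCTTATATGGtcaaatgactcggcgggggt
Fhl2, first start: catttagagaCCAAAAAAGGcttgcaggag

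**Figure D2:**
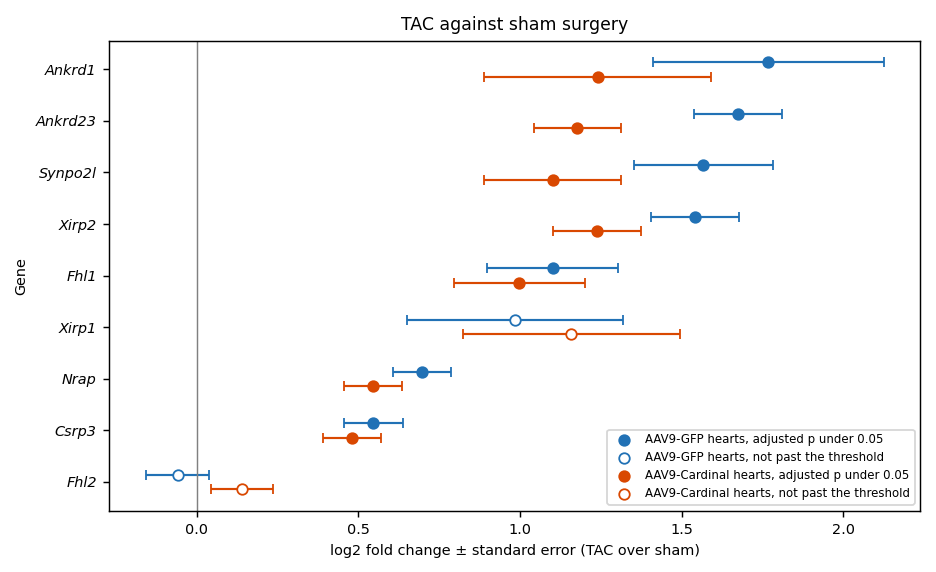
TAC effect on 9 of the genes in AAV9-GFP hearts (blue) and AAV9-Cardinal hearts (orange), as log2 fold change ± SE from the edgeR fit; filled points passed an adjusted p of 0.05 and Ankrd2 is left out because it was at 0 in most sham hearts. Ankrd1, Ankrd23, Synpo2l and Xirp2 lie above 1 with either virus, and Fhl2 lies near 0.

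Levels were compared between genes per kilobase of exon. In sham hearts with either virus Fhl2 was the most abundant, at 513 ± 78.7 (SD) CPM per kilobase with AAV9-GFP, followed by Ankrd1 at 260 ± 128 and Csrp3 at 216 ± 8.09, whose mice overlapped. Nrap (84.9 ± 3.37) and Ankrd23 (59.6 ± 8.80) came next and were separate. Xirp2, Xirp1 and Fhl1 lay between 26.2 and 33.1 CPM per kilobase, each overlapping with its neighbor, and Synpo2l was just below at 21.04 ± 1.55. After TAC in AAV9-GFP hearts Ankrd1 took the first place at 887 ± 172 CPM per kilobase, apart from Fhl2 at 492 ± 54.4 in every mouse. Ankrd23 moved above Nrap (190 ± 28.2 against 137 ± 8.67), also without overlap. In AAV9-Cardinal TAC hearts Ankrd1 (563 ± 224) overlapped with Fhl2 (522 ± 34.7), and Ankrd23 (135 ± 24.5) with Nrap (119 ± 15.5). The place of Ankrd23 in this order is uncertain in every group. Of its 50-base stretches 75.0% also occur in other genes, and how such reads were counted is not known.

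Hearts of the same surgery were then compared between viruses, the question being whether Cardinal expression altered the stretch genes. In TAC hearts 0 of the 10 genes passed the threshold in edgeR, beside 0.101% of all genes. At an unadjusted p under 0.05 there were 4 (Ankrd23, Xirp2, Nrap and Synpo2l, all lower with Cardinal), beside 15.0% of all genes, and DESeq2 called Ankrd23 and Xirp2 lower, beside 1.17% of the 12278 genes to which it gave an adjusted p (3.30% in either direction). Ankrd23 averaged 364.4 ± 66.0 (SD) CPM with Cardinal and 512.7 ± 76.0 CPM with GFP, and all 4 Cardinal hearts were below all 4 GFP hearts, which held for 3.19% of all genes. The margin was small, 436.8 CPM in Cardinal mouse 6 against 439.5 CPM in GFP mouse 1. With the Gm42417 counts added, the nearest hearts were Cardinal mouse 6 at 445.4 CPM and GFP mouse 4 at 471.2 CPM. The log2 difference of Ankrd23 alone was -0.49 ± 0.13 (SE, edgeR adjusted p = 0.11, and 0.016 with DESeq2). For Xirp2 the means were 853.6 ± 178.8 and 1152 ± 182.7 CPM, with overlap (log2 difference -0.43 ± 0.13, edgeR adjusted p = 0.15, and 0.045 with DESeq2).

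The log2 difference was -0.47 ± 0.21 for Synpo2l and -0.20 ± 0.09 for Nrap (edgeR adjusted p = 0.31 and 0.30). Ankrd1 averaged 1625 ± 646.0 CPM with Cardinal and 2559 ± 497.0 CPM with GFP, and its log2 difference of -0.65 had a 95% interval of -1.34 to 0.03. Xirp1 and Fhl2 were the only 2 of the 10 with a positive sign, at 0.16 (95% interval -0.49 to 0.81) and 0.08 (-0.11 to 0.27). Csrp3 and Fhl1 were at -0.11 (-0.29 to 0.06) and -0.20 (-0.59 to 0.19). The median of the 10 log2 differences was -0.32, and -0.20 without Ankrd2, beside -0.01 for all genes tested. A similar level with both viruses is not shown by these intervals.

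In sham hearts 0 of the 10 genes differed between viruses in edgeR (0 also at an unadjusted p under 0.05 and 0 with DESeq2), beside 0.0119% of all genes by adjusted p and 2.59% unadjusted. For example, Synpo2l averaged 97.4 ± 7.17 CPM with GFP and 97.4 ± 6.70 CPM with Cardinal, and Ankrd23 160.7 ± 23.7 and 161.2 ± 10.04 CPM (the sign of the Ankrd23 difference turned negative with Gm42417 added). The widest interval among the 9 genes above 1 CPM was that of Ankrd1, with a log2 difference of -0.13 (95% interval -0.81 to 0.55), and the narrowest were those of Csrp3, -0.05 (-0.22 to 0.13), and Nrap, -0.05 (-0.23 to 0.12).

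Whether TAC acted differently under the 2 viruses was tested as an interaction. In edgeR 0 of the 10 genes passed, beside 0.0119% of all genes, and 1, Ankrd23, had an unadjusted p under 0.05, beside 10.2% of all genes. DESeq2 called 0 of the 9 genes for which it gave an adjusted p, Ankrd2 being left out, beside 111 of all 3457 genes with one. The Ankrd23 interaction was -0.50 ± 0.19 on the log2 scale (adjusted p = 0.39), that is, a smaller TAC effect with Cardinal, and -0.33 (adjusted p = 0.51) with the Gm42417 counts added. Ankrd1 (-0.53 ± 0.49), Synpo2l (-0.47 ± 0.30) and Xirp2 (-0.30 ± 0.19) had the same sign with adjusted p of 0.75, 0.62 and 0.61. Xirp1 (0.18 ± 0.47) and Fhl2 (0.20 ± 0.14) had the opposite sign. A gene called after TAC with GFP and not with Cardinal, or the reverse, was therefore not shown to respond differently.

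**Figure D3:**
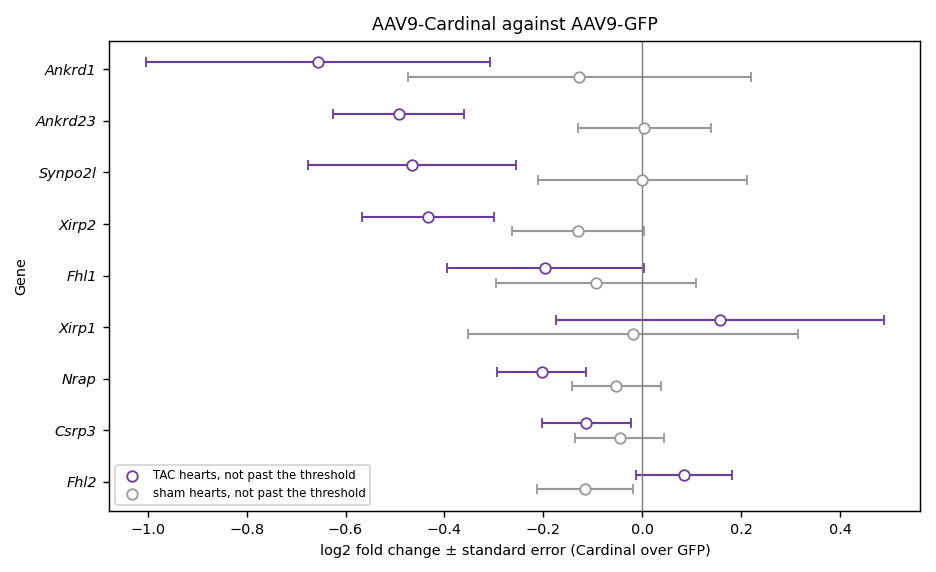
AAV9-Cardinal minus AAV9-GFP for 9 of the genes in TAC hearts (purple) and sham hearts (gray), as log2 fold change ± SE from the edgeR fit; open points did not pass an adjusted p of 0.05, which was all of them. In TAC hearts 7 of the 9 points are below 0, from -0.65 for Ankrd1 to -0.11 for Csrp3, and the sham points lie between -0.13 and 0.00.

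Some of the genes varied together within a group. After each group mean had been subtracted, log2 CPM over the 16 mice gave r = 0.91 for Xirp2 with Synpo2l, 0.89 for Xirp1 with Xirp2 and 0.89 for Csrp3 with Nrap (Pearson, given as a description, since the values of a mouse share its library and its surgery). Ankrd1 did not join this pattern, and with Fhl2 it gave r = -0.55. Fhl2 was also at -0.38 with Ankrd23, at or near 0 with Ankrd2, Xirp1 and Synpo2l and at 0.10 to 0.31 with Xirp2, Nrap, Csrp3 and Fhl1. Among AAV9-Cardinal TAC hearts mouse 6 had the highest level for 5 of the 9 genes other than Ankrd2 and mouse 4 the lowest for 6, with median deviations from the group mean of 0.25 and -0.31 on the log2 scale. Among AAV9-GFP TAC hearts mouse 7 was the highest for 4 of the 9 (median deviation 0.19) and the lowest for none, whereas mice 1 and 4 were the lowest for 4 each.

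**Figure D4:**
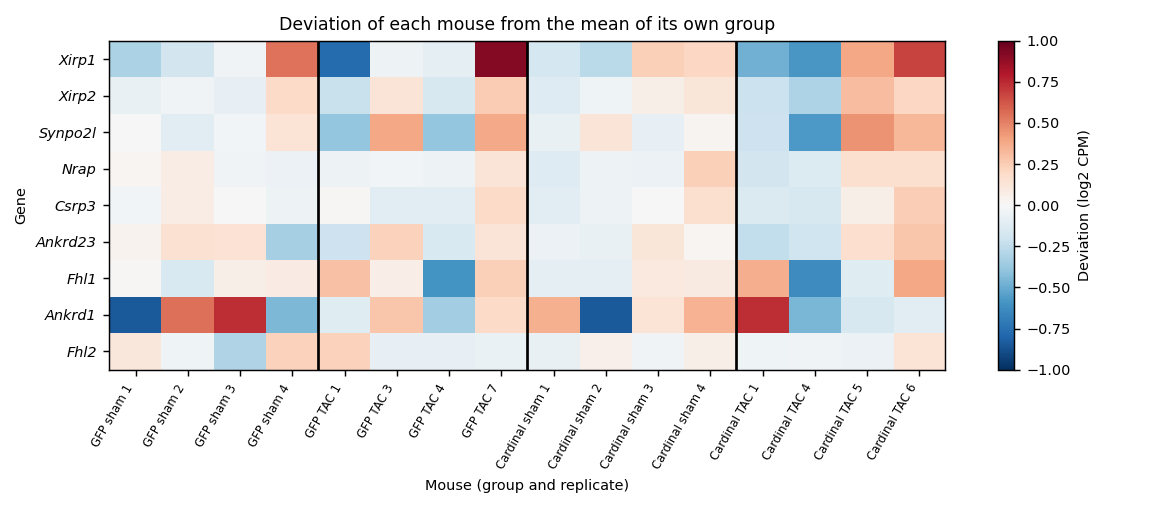
Deviation of each mouse from the mean of its own group in log2 CPM, for 9 of the genes (rows) and 16 mice (columns, black lines between groups); red is above and blue below the group mean. Xirp1, Xirp2 and Synpo2l share high values in AAV9-GFP TAC mouse 7 and AAV9-Cardinal TAC mice 5 and 6, and Ankrd1 has its own pattern, with its highest AAV9-Cardinal TAC value in mouse 1.

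By the same measure, the 3 most similar genes were listed for each, out of 14293 whose mean reached 1 CPM. Among so many genes over 16 mice, high r also arises by chance, and the values were not tested against it. Uck2, a uridine-cytidine kinase, was the closest to Xirp2 (r = 0.96) and to Xirp1 (r = 0.94), and Rcan1, a calcineurin regulator, followed for Xirp2 (r = 0.94) and Dhx8 (r = 0.93). Lpgat1 and Tiam2 came next for Xirp1 (r = 0.92 each). The closest to Ankrd1 was Amot (r = 0.94), which encodes angiomotin, a binding partner of YAP, before Gbp4 (r = 0.90) and Prkab2 (r = 0.89). Csrp3 and Nrap were each closest to the other, with Cenpa and Mapkapk2 (r = 0.87 each) next for Csrp3 and Srsf6 (r = 0.88) and Atp6v0c-ps1 (r = 0.85) for Nrap. Synpo2l was closest to 1110002E22Rik (r = 0.92), Xirp2 and Gm13889 (r = 0.91 each). For Ankrd23 they were Sdf2 (r = 0.88), Met (r = 0.86) and Shisa5 (r = 0.85). Fhl1 had Shroom3 (r = 0.86), Tyw3 and Tfip11 (r = 0.84 each), and Fhl2 had Tmed10-ps (r = 0.89), Speg (r = 0.88), a kinase of striated muscle, and Inpp5a (r = 0.87). Ankrd2, with its few counts, had Crlf2 (r = 0.92), Gm14261 (r = 0.84) and Cd72 (r = 0.83).

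Companion genes were counted against the shares of all genes called, 8.49% higher and 8.92% lower in AAV9-GFP hearts and 3.10% and 3.38% in AAV9-Cardinal hearts. Of 25 other Z-disc genes tested (of 26 listed), 7 were called higher and 0 lower after TAC with either virus. In AAV9-GFP hearts these included Flnc (filamin C, log2 fold change 1.07 ± 0.21), Myot (myotilin, 0.83 ± 0.18), the small heat shock gene Hspb7 (0.52 ± 0.06) and Des (desmin, 0.52 ± 0.05). The median log2 fold change of the list was 0.15 with AAV9-GFP and 0.27 with AAV9-Cardinal. Of 29 costamere and integrin attachment genes, 4 were higher and 2 lower in AAV9-GFP hearts, and 3 and 1 in AAV9-Cardinal hearts, so that the lower calls were near the share of all genes. Among them Sntb1 (beta-1 syntrophin) was at 0.88 ± 0.20, Tln1 (talin) at 0.49 ± 0.06, Parvb (beta-parvin) at 0.32 ± 0.07 and Sgca (alpha-sarcoglycan) at -0.38 ± 0.07 with AAV9-GFP.

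Of 11 intercalated disc genes 3 were lower and 0 higher in AAV9-GFP hearts, namely Dsg2 (desmoglein 2, -0.69 ± 0.14), Ctnna1 (alpha-E-catenin, -0.39 ± 0.06) and Dsp (desmoplakin, -0.22 ± 0.04), and 2 were lower in AAV9-Cardinal hearts. Of 12 titin and M-band partners, 1 was higher with AAV9-GFP (Myom1, myomesin 1, 0.23 ± 0.05) and 2 with AAV9-Cardinal. Of 8 family relatives tested (of 10 listed), Csrp2 was higher (0.52 ± 0.14) and Nebl, the cardiac nebulette, lower (-0.40 ± 0.06) in AAV9-GFP hearts. With AAV9-Cardinal 1 relative was higher and 1 lower. These lists held 12 genes or fewer each, and their counts were not tested against the shares of all genes.

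The regulators and targets of YAP-TEAD and SRF numbered 20, of which 5 were higher and 2 lower in AAV9-GFP hearts, and 2 and 0 in AAV9-Cardinal hearts. With AAV9-GFP the lower calls were near the share of all genes, 8.92%, beside 8.49% called higher. Ccn2, a secreted matrix protein and a known YAP target, had log2 fold changes of 1.34 ± 0.26 with AAV9-GFP and 1.24 ± 0.26 with AAV9-Cardinal (edgeR adjusted p = 0.0024 and 0.014). Cnn1 (calponin 1, 1.18 ± 0.35), Axl (a receptor kinase, 0.47 ± 0.09) and Amotl2 (angiomotin-like 2, -0.49 ± 0.15) also passed with AAV9-GFP. The level of Cnn1 was low, with means of 0.48 CPM in AAV9-GFP sham hearts and 1.10 CPM in AAV9-GFP TAC hearts. In edgeR none of the genes in these 6 lists passed for the difference between viruses, in TAC or sham hearts, or for the interaction. Of all genes 0.101%, 0.0119% and 0.0119% passed, and at such shares an absence of calls says little about the lists. DESeq2 results are not given for them. Fibroblasts and vessel cells also express Ccn2, Cnn1 and Axl.

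**Figure D5:**
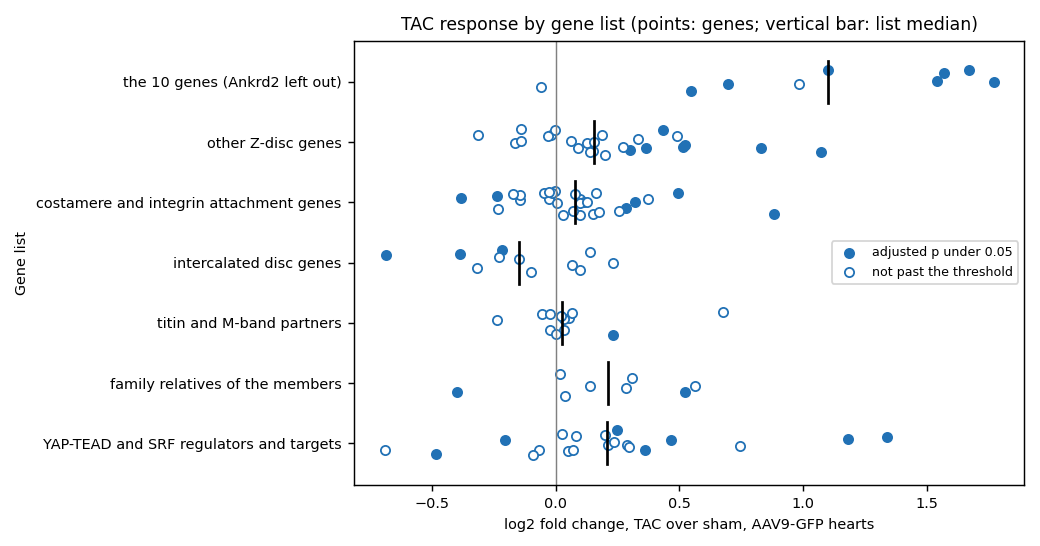
log2 fold change of TAC over sham in AAV9-GFP hearts for the stretch genes (Ankrd2 left out) and the 6 companion lists; each point is a gene, filled where its adjusted p was under 0.05, and the vertical bar is the list median. The stretch genes reach from -0.06 (Fhl2) to 1.77 (Ankrd1) with a median of 1.10, and the companion medians lie between -0.15 and 0.21.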

How the data were processed

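Poly(A)-selected RNA of 16 hearts was sequenced on a DNBSeq platform with single-end reads of 50 bases. The authors deposited raw read counts per gene, a column per mouse, without normalization. The submitters' processing notes name FastQC, HISAT2 2.1.0, edgeR 3.26.1 and the build GRCm38. The counting program, its use of strand and its treatment of reads with several matches are not given in the sources used here. Of 55573 genes, 55480 were named with GENCODE M21.

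The fit used edgeR 4.0.16 under R 4.3.3 (TMM, filterByExpr over the 4 groups, quasi-likelihood fit of all 16 mice, contrasts, Benjamini-Hochberg adjustment over all 16857 genes). SEs came from that fit and CPM from TMM library sizes. Log2 CPM used a prior count of 2. A floor of 3 counts covers counting error only. The script was tested on simulated data. The Fhl1 to Fhl2 ratio was compared by exact permutation. No mice were duplicates by their counts. Nothing in the labels says beyond the replicate number that samples are separate animals, so p-values measure the spread between these samples. Alternatives were DESeq2 1.42.0, other filters, a robust spread, mitochondrially encoded genes left out, a replicate block, only the mice compared, each mouse left out, and, added after seeing the data, Ankrd23 and Gm42417 summed. Plots used Python 3.11.15 with matplotlib 3.10.9.

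The genes and companion lists were chosen with earlier results of these data known. Named were all 10 genes, up to 4 genes per list with the largest absolute change among those called for TAC in AAV9-GFP hearts and reaching 1 CPM in the higher group, and the 3 genes most correlated with each. Promoter windows were available for 9 of the 10 (14 windows). Xirp1 was not analysed for promoter motifs. Besides MCAT, CArG and AP-1, the MEF2 site was searched, on both strands. The printed stretches come from RefSeq (GRCm38.p6).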

Additional observations from a re-analysis of the deposited data

Results flagged for a closer look

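In 39 sets of 4 mice (a gene in a group), 5 held a mouse far from the other 3. Chance alone gives about 1 set in 20 if sets are independent. These were not, since some genes varied together within mice, and an excess was not tested. Ankrd2 was at 0.4322 CPM in AAV9-GFP sham mouse 2 and at 0 in the other 3 sham mice. Xirp2 was at 450.6 CPM in AAV9-GFP sham mouse 4, above the 373.9 to 384.4 CPM of the others, and this mouse was also the highest of its group for Xirp1 (245.6 CPM) and had smooth muscle markers at 249.0 CPM against 71.2 to 82.8 CPM in the others. Fhl2 was at 1088 CPM in AAV9-GFP TAC mouse 1, above 879.0 to 886.9 CPM, and likewise at 1088 CPM in AAV9-Cardinal TAC mouse 6, above 947.0 to 962.6 CPM. Nrap was at 828.0 CPM in AAV9-GFP TAC mouse 7, above 728.8 to 739.8 CPM, and the same mouse had the highest Csrp3 (958.7 CPM) and Xirp1 (592.9 CPM) of its group.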

How the results depend on the processing

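Ankrd23 and Xirp2 kept their TAC calls with both viruses under every alternative and with each mouse left out, and Ankrd1, Csrp3, Fhl1, Nrap and Synpo2l did so with AAV9-GFP. With the replicate block, 2 genes instead of 7 were called after TAC in AAV9-Cardinal hearts, with Ankrd1, Csrp3, Fhl1, Nrap and Synpo2l lost. The numbers 5, 6 and 7 occur in 1 TAC group each, so with the block those mice add nothing to the TAC comparisons. The AAV9-Cardinal TAC group then rests on mice 1 and 4, and fewer mice and a shared origin cannot be told apart there. Replicate numbers were not taken as pairs, since the labels give no shared litter or day. Yet same-number pairs were somewhat more alike. Of 16 such pairs 4 had a correlation of deviations above 0.1 (median 0.05), against 4 of 80 different-number pairs (median -0.013). The same-number pairs above 0.1 were all among the mice numbered 1, whose 6 pairs lay between 0.067 and 0.211 and whose shared origin was not tested. Over all genes the replicate block called 31 instead of 1092 there, leaving out the filter 615, and leaving out a mouse 384 (AAV9-Cardinal TAC mouse 5) to 1436 (AAV9-Cardinal TAC mouse 1), with 395, 511, 581 and 651 without AAV9-Cardinal sham mouse 2, TAC mouse 6, sham mouse 1 and sham mouse 4. For the interaction DESeq2 called 111 of the 3457 genes with an adjusted p, where edgeR called 2 of 16857. Between viruses in TAC hearts DESeq2 called 2 of the stretch genes, and 405 of 12278 genes where edgeR called 17 of 16857. The same comparison gave 35 calls over all genes with a filter of 1 CPM, 30 without mitochondrially encoded genes, 3 without a filter or with only the mice compared, and 0 with the block. It gave 535 without AAV9-Cardinal TAC mouse 1 (79 for the interaction), 79 and 57 without AAV9-GFP TAC mouse 4 and 1, and 0 without any of 8 other mice (AAV9-Cardinal TAC 4, 5 and 6, AAV9-Cardinal sham 2 and 3, AAV9-GFP TAC 3, AAV9-GFP sham 2 and 3), with 4 to 14 without the rest. In sham hearts DESeq2 called 4 genes instead of 2 and the block 1, and for the interaction the block called 1.

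Signs turned only where differences were near 0 or rested on few counts. Fhl2 between viruses in TAC hearts was -0.05 (-0.0515) on the log2 scale with the block. In sham hearts Ankrd23 was -0.205 with Gm42417 added and -0.00106 without a filter, and Synpo2l was -0.00563 without a filter, -0.00167 with only the mice compared and -0.00168 with the block. With a mouse left out, Fhl2 after TAC in AAV9-GFP hearts ranged from -0.151 to 0.0202 and Xirp1 between viruses in TAC hearts from -0.0965 to 0.560. In sham hearts Ankrd1 ranged from -0.348 to 0.139, Ankrd2 from -4.70 to 0, Ankrd23 from -0.0948 to 0.0534, Xirp1 from -0.120 to 0.197 and Synpo2l from -0.0436 to 0.0485. For the interaction Ankrd2 ranged from -1.29 to 3.41, Xirp1 from -0.0806 to 0.576, Csrp3 from -0.156 to 0.00121 and Fhl1 from -0.264 to 0.0686. The cause was not tested. The Fhl1 to Fhl2 differences moved by less than 1 SD with 1 added to each count or a mouse left out, and counts per kilobase cannot change them by construction. With 4 mice per group the intervals between viruses stay wide for Ankrd1 and Xirp1, and Ankrd2 is limited by depth.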
